A study of Mus musculus with 27 samples.

Results

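The BCL2 family sets whether a cell releases cytochrome c from its mitochondria and dies. Anti-apoptotic members (BCL2, BCL-XL encoded by Bcl2l1, MCL1 and the A1 proteins encoded by the Bcl2a1 genes) hold the pore-forming effectors BAX and BAK in check, and the BH3-only proteins BIM (encoded by Bcl2l11) and BID release that hold. A1 is known chiefly from leukocytes, and its mouse copies are nearly the same in sequence. The annotated span of Bcl2a1c (chr9:114330135-114330578) is far shorter than that of Bcl2a1d (chr9:88723288-88731850). Whether each copy yields a working protein was not analysed here. Measurements of 10 genes are described here: Bcl2a1b, Bcl2a1c, Bcl2a1d, Bcl2, Bcl2l1, Mcl1, Bax, Bak1, Bcl2l11 and Bid. They were named by symbol and matched to array probes through RefSeq accessions, which gave a probe for 9 of the 10 among 37208 genes or transcripts on the array. No probe matched Bcl2a1b, which was not analysed here. The family was chosen because Bcl2a1c and Bcl2a1d were lower with DOX in HP cells, so all members' values in that comparison are given as a description with no test.

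All cells came from one mouse ESC line, in which doxycycline (DOX) switches on a Flag-tagged dominant-negative FOS peptide (dnFOS) from the Hprt locus, also carried by the untreated cells. The peptide pairs with JUN proteins and keeps AP-1 off DNA. FLK1+ cells were purified from embryoid bodies of 3.75 days and either profiled at once or placed in blast culture with or without 1 µg/ml DOX. Complete cultures were taken after 5 h (FLK1+ 5h) and 1 day (d1 BC). After 2 days 4 populations were sorted by FACS: SM, HE1 (gated KIT+TIE2+CD41-), HE2, which differs from HE1 by being CD41+, and HP, which is KIT+TIE2-CD41+. Each of the 13 groups was read on 2 one-colour arrays, apart from SM without DOX (3), making 27. The labels do not say that replicates were separate cultures, so p-values measure the spread between arrays, which may be technical. Cells without the dnFOS cassette were not given DOX on these arrays, and the level of dnFOS itself was not analysed here.

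Signals are log2 values relative to the 75th percentile of the array, so that 0 is that percentile and a unit is a doubling. They rank samples for one probe and say nothing of one gene's level against another's. The share of probes well above background ranged from 48.0% to 89.7% between arrays, and the 75th percentile itself from a signal of 73.2, on 1 untreated HE2 array, to 639. The sorting markers followed the sort on untreated arrays but not on all DOX arrays. Tek, which encodes TIE2, was 2.22 and 2.74 in untreated HE1 cells and 0.58 and -1.42 in untreated HP cells. Itga2b, which encodes CD41, was 1.33 and 0.87 in HE1, 2.64 and 3.77 in HE2 and 3.25 and 3.01 in HP cells. With DOX, Tek was 2.75 and 0.20 in HE1, 2.71 and -0.75 in HE2 and -1.94 and -2.18 in HP cells. Itga2b with DOX was 1.94 and -0.82 in HE1, 3.83 and 0.05 in HE2 and 0.43 and 2.61 in HP cells. The second HE2 array and the first HP array with DOX thus lay below both untreated HE1 arrays.

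The Bcl2a1 genes share the sequence before their starts. It is shown here because the members differ at a match to a loose form of the motif of AP-1, which dnFOS blocks. Each stretch below is 120 bases of RefSeq sequence (build GRCm38.p6), 5′ to 3′ along the gene and upstream of its annotated start. Capitals mark TGANTCA, a loose form of the AP-1 motif with any base (N) at its centre, and GAGGAAGT, a motif of the myeloid factor PU.1 (Spi1). Both were searched on both strands. The TGANTCA matches shown read TGAATCA, with A at the centre.
Bcl2a1d, chr9:88731865-88731984, minus strand: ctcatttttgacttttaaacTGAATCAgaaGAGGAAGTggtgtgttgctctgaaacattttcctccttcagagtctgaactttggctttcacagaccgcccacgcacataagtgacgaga
Bcl2a1c, chr9:114329885-114330004, plus strand: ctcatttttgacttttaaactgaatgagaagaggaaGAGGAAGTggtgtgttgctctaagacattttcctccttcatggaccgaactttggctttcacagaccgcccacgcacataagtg
Bcl2a1b, chr9:89199089-89199208, plus strand: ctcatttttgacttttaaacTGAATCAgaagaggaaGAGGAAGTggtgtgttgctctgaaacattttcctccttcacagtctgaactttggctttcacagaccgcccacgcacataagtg
Counted from 1 at the 5′ end of the stretch, Bcl2a1d and Bcl2a1c differ in their first 30 bases by C26G, which lies in the TGANTCA match. Bcl2a1b and Bcl2a1c differ at 7 of 120 bases. Among 32851 RefSeq windows of 300 bases around gene starts, 7.81% held TGANTCA and 3.2% held GAGGAAGT. Of the 10 family members, 2 held the first (Bcl2a1b and Bcl2a1d) and 4 held the second (Bcl2a1b, Bcl2a1c, Bcl2a1d and Bak1). A match is a run of letters and not a measured binding site. With DOX in HP cells both Bcl2a1d, which has the TGANTCA match, and Bcl2a1c, which lacks it, read lower. Any part of the match in this was not tested. Since the genes are so alike, a probe matched to one may also catch its copies, and signals of Bcl2a1c and Bcl2a1d cannot be assigned to a single copy with certainty.

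Bcl2a1d had its highest signal in untreated HP cells. It was 0.63 and 1.83 there, and -2.17 and -2.74 in HP cells with DOX. All 4 of these arrays were well above background and the groups did not overlap. The difference with DOX was -3.68 (SE 0.61) on the log2 scale, a 12.8-fold lower signal. Untreated and DOX-treated HP arrays shared 2 slides, and the difference was -2.80 within slide 1 and -4.57 within slide 3.

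Bcl2a1c was -1.90 and -2.20 in untreated HP cells and -6.16 and -6.91 with DOX. Both DOX arrays lay near the floor and were not well above background, so the change has only a bound: Bcl2a1c was at least 5.58-fold lower with DOX. That bound compares the untreated mean with the mean of, on each DOX array, the higher of its dimmest detected signal and the probe's own signal. The measured difference was -4.48, and it was -4.26 within slide 1 and -4.71 within slide 3. It shrank to -0.82 with normexp background correction and to -1.82 in the log2 values normalized by the authors, where Bcl2a1d stood at -2.74 and -3.31. The bound for Bcl2a1c thus holds only for the background subtraction and scaling used here. Of all 25099 genes tested in HP cells, 0.0359% were called lower, and nothing is read from that share for the Bcl2a1 genes, which were chosen on this comparison.

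**Figure D1:**
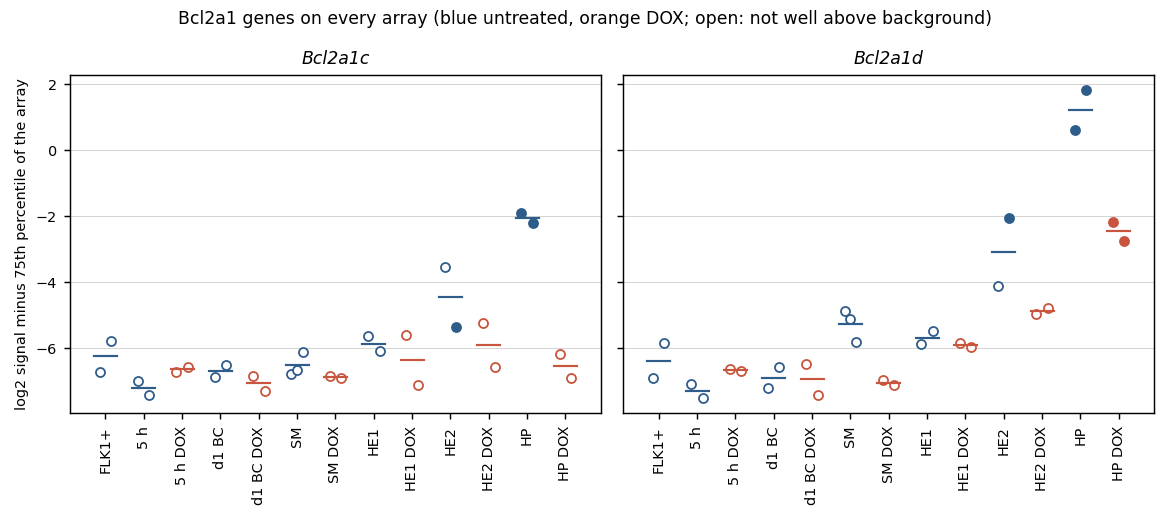
Signal of Bcl2a1c and Bcl2a1d on each of the 27 arrays, in log2 units relative to the array's 75th percentile. Each point is 1 array, bars are group means, blue is untreated and orange is DOX, and open points were not well above background. Filled points lie only in HP cells and on 1 untreated HE2 array. The untreated HP arrays of Bcl2a1d sit at 0.63 and 1.83 and those with DOX at -2.17 and -2.74.

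Outside HP cells the Bcl2a1 genes were near background. In untreated HE2 cells Bcl2a1d was -4.11 and -2.05, and only the second array was well above background. With DOX it was -4.96 and -4.77, on neither array well above background. The groups did not overlap, but no HE2 group was well above background on both arrays, so the comparison was not tested and no fold is given. Within slides the HE2 difference was -0.85 and -2.73. Bcl2a1c was -3.53 and -5.34 in untreated HE2 cells, where only the second, lower value was well above background, since the first array was the dimmest of all. With DOX it was -5.23 and -6.57.

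In HE1 cells Bcl2a1d was -5.87 and -5.49 untreated and -5.85 and -5.96 with DOX, and Bcl2a1c was -5.64 and -6.07 untreated and -5.60 and -7.09 with DOX, all not well above background. In SM cells Bcl2a1d was -4.86, -5.10 and -5.80 untreated and -6.95 and -7.12 with DOX. These arrays did not overlap, but none was well above background, so no fold is given. In the FLK1+ cells and the whole cultures both genes lay between -7.50 and -5.76. From untreated HE1 to untreated HP cells the rise was at least 31.7-fold for Bcl2a1d and at least 3.27-fold for Bcl2a1c, again as a description because the HP arrays chose these genes. With normexp background correction these differences shrank from 6.90 to 2.80 on the log2 scale for Bcl2a1d and from 3.80 to 0.08 for Bcl2a1c, so the bounds hold only for the scaling used here.

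Genes whose 13 group means followed those of Bcl2a1d most closely, other Bcl2a1 genes left out, were Rgs1 (Pearson r = 0.993), Pirb (0.992), Gpr65 (0.982), Cd86 (0.980) and P2ry13 (0.980). Those closest to Bcl2a1c were Cd209c (0.969), Dcstamp (0.957), Il1b (0.939), Ampd3 (0.937) and Ptprc (0.934), the gene of the leukocyte antigen CD45. With DOX in HP cells their differences ran from -2.21 for Cd86 to -3.56 for Pirb, which the ranking itself favours, since both HP groups entered it. These are rankings of 16368 genes over the same 13 group means, from the same 27 arrays, and for this pattern the HP groups weigh most. Outside untreated HP cells Bcl2a1c lay near the floor, where values have no order.

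Most markers of myeloid cells read lower in the HP cells with DOX. Of 20 listed, 19 were well above background on both untreated HP arrays. Of these, 15 read lower by any amount, as did 32.0% of all genes tested, with a median of -1.86 against 0.25 over all genes. These values are a description with no test, since the family was chosen on this comparison. Their mean signal ranged from 1.34 to 1.81 on the untreated HP arrays and from -0.45 to 0.25 with DOX, and 17 of the 19 stayed well above background on both DOX arrays. Spi1, which encodes PU.1, was 1.74 and 0.86 untreated and -1.84 and -1.94 with DOX. Irf8 was 1.44 and 0.79 untreated and -0.96 and -2.28 with DOX. Cebpa was 0.17 and -0.76 untreated and -3.09 and -2.68 with DOX. Csf1r was 2.99 and 3.77 untreated and 1.84 and 1.95 with DOX. Itgam, which encodes CD11b and was on the myeloid list, was higher with DOX by 1.49. Its probe was dimmer in untreated HP cells (3.69 and 3.20) than in untreated HE1 cells (5.51 and 6.13), so nothing is read from it about myeloid cells. By the authors' flow cytometry, CD11b protein on floating cells of later cultures was lower with DOX. In HE2 cells the mean myeloid signal ranged from 0.27 to 0.37 untreated and from -1.16 to -0.70 with DOX. Of 16 tested there limma called 0. At an unadjusted p under 0.05 were 7 of the 16 and 9.86% of all genes tested. Fewer myeloid cells and less RNA per cell cannot be told apart in these bulk samples, and the part of the myeloid genes in the Bcl2a1 result was not tested.

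The other 7 members were well above background on all 27 arrays, and none was called as changed by DOX in the 5 populations outside HP. Of 35 tests in FLK1+ 5h, d1 BC, SM, HE1 and HE2 cells, limma called 0 at an adjusted p under 0.05 with at least a 2-fold change, and 0 had an unadjusted p under 0.05. The lowest adjusted p was 0.605. Among all genes tested, limma called 0.00421% for FLK1+ 5h, 0.00835% for d1 BC, 0.0210% for SM cells and 0% for both HE1 and HE2. The shares at an unadjusted p under 0.05, in the same order, were 5.33%, 1.64%, 2.84%, 1.27% and 9.86%. Estimates ran from -0.79 for Bcl2l11 in d1 BC to 0.81 for Bcl2l1 in HE2 cells. Their 95% confidence intervals reached from -1.69 to 2.38 between them, and in FLK1+ 5h cells the intervals of all 7 members extended past 1 unit, a 2-fold change, on at least one side. In 70 tests of whether the DOX effect differed between 2 of these populations (10 pairs), limma called 0, 0 had an unadjusted p under 0.05, and the lowest adjusted p was 0.572.

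**Figure D2:**
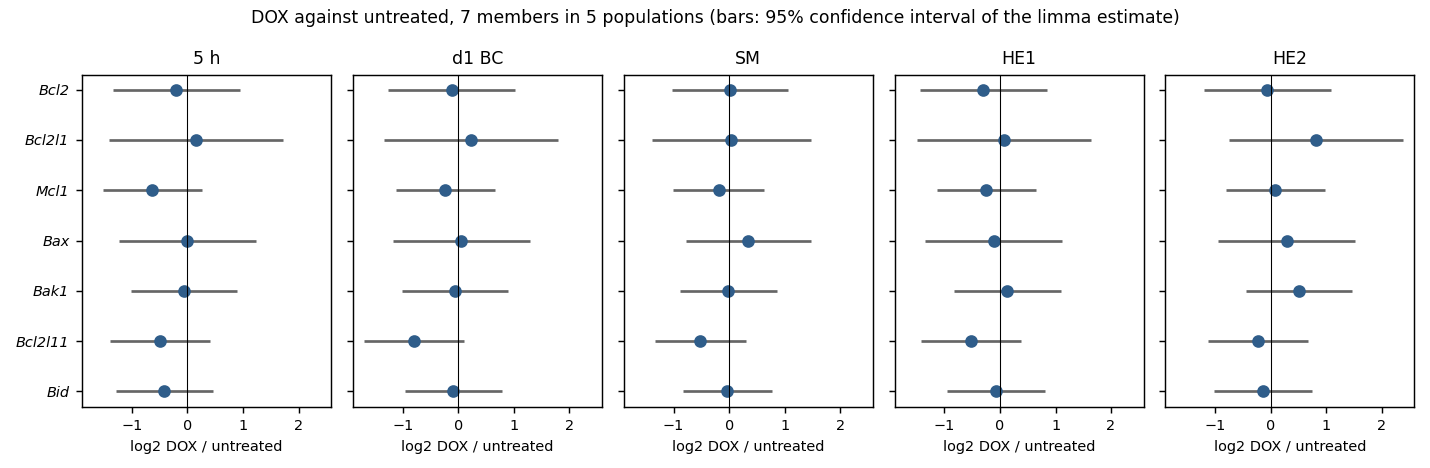
Log2 ratio of DOX-treated to untreated cells for 7 members in 5 populations. Points are limma estimates and bars their 95% confidence intervals, which include 0 in all 35 cases. Bcl2l11 lies left of 0 in each panel, from -0.79 in d1 BC to -0.22 in HE2 cells.

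Among the anti-apoptotic members, Bcl2, whose protein guards the outer mitochondrial membrane, read highest in HE1 cells. Untreated cells read 1.93 and 0.70 in HE1, 0.20 and -0.41 in HE2, and -0.33 and -0.49 in HP. HE1 arrays lay above those of both other populations, and HE2 and HP overlapped. From HE1 to HP cells the difference was -1.72 (SE 0.55, limma adjusted p = 0.0884), and it was -2.26 within slide 1 and -1.19 within slide 3. From HE1 to HE2 it was -1.42 (SE 0.55, adjusted p = 0.275 by limma), with -1.73 and -1.11 within the slides. Neither passed the threshold, among 4.59% and 2.65% of genes called in these steps, and with median scaling the first shrank to -1.11. With the slide as a fixed block both did, at limma adjusted p = 0.00690 for HP and 0.0299 for HE2, in a fit that called 11.4% and 6.66% of genes. The step to HP also passed in the authors' normalized values, with the replicate number as a block and with array quality weights (limma adjusted p = 0.0443, 0.0299 and 0.0368).

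With DOX, Bcl2 was 1.71 and 0.32 in HE1, 0.33 and -0.67 in HE2 and -0.97 and -0.76 in HP cells. The same descent was thus seen in DOX-treated arrays of both slides. In HP cells the 2 DOX arrays lay below both untreated arrays, by 0.45 in the mean. Across the 13 groups Bcl2 ran from 1.31 in untreated HE1 cells, next to 1.01 in HE1 cells with DOX, down to -0.86 in HP cells with DOX. The other 10 group means fell between -0.41 and 0.33. In that order the arrays of neighbouring groups overlapped, apart from those of HP cells without and with DOX. The closest group means over 16367 genes were those of Crip1 (r = 0.947), Lama4 (0.943), Ttc9 (0.931), Nrp2 (0.927) and Dmrt3 (0.923).

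**Figure D3:**
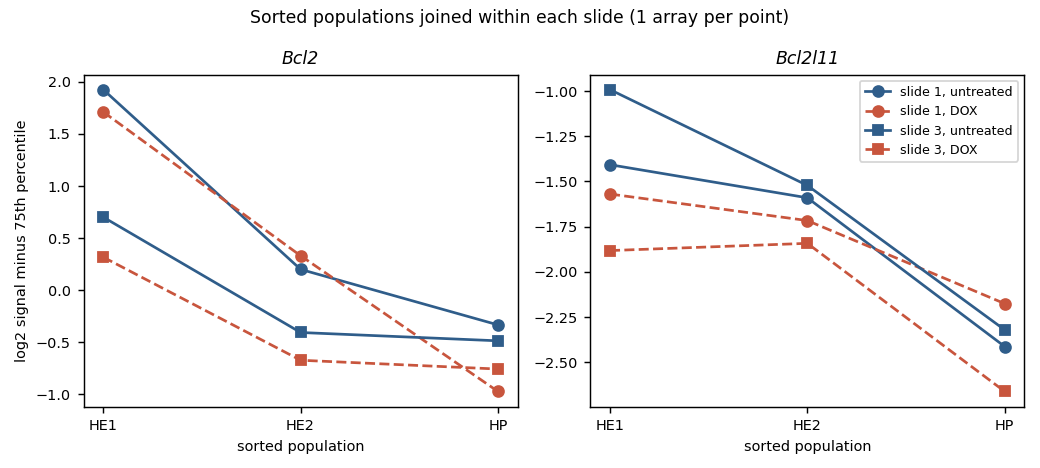
Signal of Bcl2 and Bcl2l11 in HE1, HE2 and HP cells, in log2 units relative to the 75th percentile, with arrays of one slide joined. Each point is 1 array. All 4 lines of Bcl2 descend from HE1 to HP cells, untreated from 1.93 to -0.33 and from 0.70 to -0.49. Both untreated lines of Bcl2l11 descend too, from -1.41 to -2.41 and from -0.99 to -2.32.

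Bcl2l1, which encodes the BCL-XL protein that erythroid cells rely on, was measured by 2 probes that differed. The brighter probe, used as the main one, was highest in untreated HP cells at 5.53 and 6.69, against 4.67 and 4.91 in HE1 cells. These groups did not overlap, and the difference of 1.32 (SE 0.75) had a limma adjusted p of 0.466. With DOX its differences ran from -0.36 in HP to 0.81 in HE2 cells, and without the dim untreated HE2 array the latter was -0.09.

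The other probe of Bcl2l1 read lower with DOX in the sorted cells. In HP cells it was 0.55 and -0.31 untreated and -2.68 and -1.49 with DOX, a difference of -2.20 where the main probe had -0.36. In HE2 cells it was -1.18 and 0.12 untreated and -0.68 and -3.30 with DOX, so those arrays overlapped. The differences at this probe were -1.46 in HE2 (limma adjusted p = 0.534), -1.02 in HE1 (adjusted p = 1.00 by limma) and -0.88 in SM cells (limma adjusted p = 0.996), none of them called. Within slide 3 the difference at the second probe was -1.82 in HE1 and -3.42 in HE2 cells, and that at the main probe 0.67 and 0.40. The group differences thus have opposite signs at the 2 probes in HE1, HE2 and SM cells, but within slides only the slide 3 pairs did. In the other pairs of these cells the signs were alike, with main and second probe at -0.54 and -0.22 in HE1 and at 1.23 and 0.50 in HE2 on slide 1, and at -0.66 and -0.25 in SM on slide 4. Which transcript each probe reads was not analysed here.

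**Figure D4:**
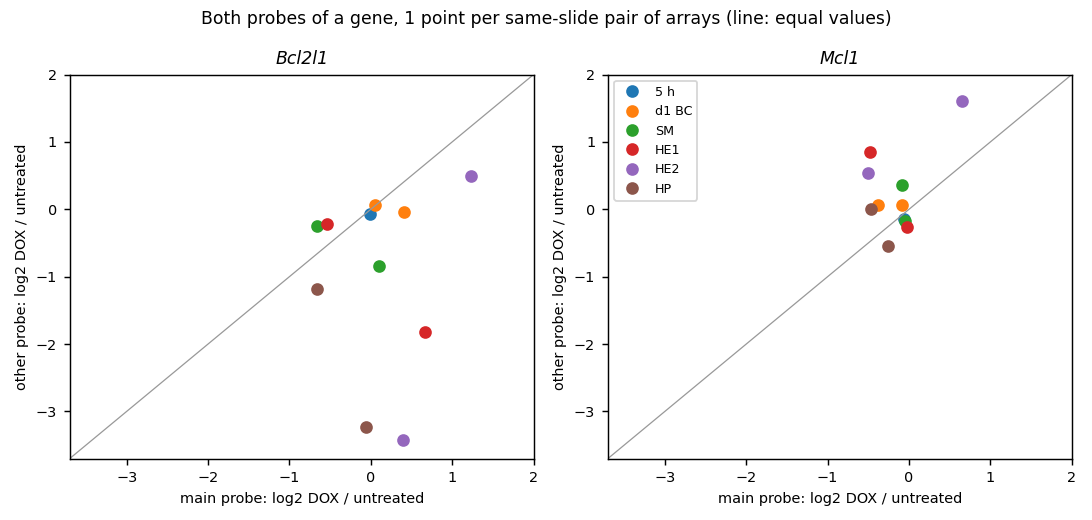
Log2 ratio of DOX-treated to untreated signal at the main probe (horizontal) and at the other probe (vertical) of Bcl2l1 and Mcl1. Each point is a pair of arrays of one slide, coloured by population, and the line marks equal values. For Bcl2l1, all points of HE2 and HP cells fall below the line, to -3.42 at the other probe in HE2 cells. For Mcl1 all points lie within 1 unit of 0 on both axes apart from 1 pair of HE2 arrays, at 1.61 on the other probe.

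Mcl1 encodes a short-lived survival factor needed by blood progenitors. Its group means at the main probe ran from 4.43 in FLK1+ cells to 5.45 in untreated FLK1+ 5h cells. From FLK1+ (4.39 and 4.46) to FLK1+ 5h (5.99 and 4.90) the signal was higher by 1.02 (SE 0.42, limma adjusted p = 0.236), with 1 high array on a slide of its own. The other probe gave 0.60 for this step. With DOX, FLK1+ 5h arrays were 4.77 and 4.85, both below the untreated ones, a difference of -0.64 (limma adjusted p = 1.00) that was -0.06 within the slide that held both. In HP cells DOX arrays were 4.90 and 4.47 and untreated 5.16 and 4.94, a difference of -0.36. Socs5 (r = 0.898), Hivep1 (0.822), Neat1 (0.816), Man2a2 (0.800) and Cd9 (0.789) had the nearest group means. For Bcl2l1 these were Eml2 (0.913), Ormdl2 (0.898), Taldo1 (0.896), Tmem123 (0.895) and Heatr3 (0.891).

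The effectors Bax and Bak1, whose proteins form the mitochondrial pore, had group means within a narrow span. Those of Bax ran from 5.63 in FLK1+ cells to 4.44 in HP cells with DOX, and of Bak1 from 4.58 in FLK1+ cells to 3.52 in untreated HE2 cells. Replicates of one group differed by as much: Bax was 3.93 and 5.48 in untreated HP cells and 4.22 and 5.70 in HE2 cells with DOX. With DOX, Bax differed by -0.11 in HE1, 0.28 in HE2 and 0.35 in SM cells, and Bak1 by 0.13, 0.51 and -0.01. Single arrays set the HE2 values, which were -0.08 for Bak1 without the dim untreated array and -0.45 for Bax without HE2 DOX replicate 2. In HP cells both DOX arrays of Bax lay within the untreated range. Bak1 was 3.98 and 3.80 there with DOX and 3.98 and 4.55 without.

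Bcl2l11, encoding the BH3-only protein BIM, read lower with DOX on average in all 6 populations. In d1 BC it was -1.82 and -2.78 untreated and -2.89 and -3.30 with DOX, a difference of -0.79 (SE 0.43, limma adjusted p = 1.00). In FLK1+ 5h cells it was -0.58 and -1.08 against -1.25 and -1.41 with DOX. In HE1 cells it was -1.41 and -0.99 against -1.57 and -1.88, and in SM cells -1.81, -1.39 and -1.52 against -1.80 and -2.39. These differences were -0.50, -0.53 and -0.52, those of HE2 and HP cells -0.22 and -0.05, and arrays did not overlap in FLK1+ 5h, d1 BC, HE1 and HE2 cells. Lower without overlap in these 4 were 16.4%, 9.61%, 8.38% and 14.4% of all genes tested. Genes lower by any amount in all 6 comparisons made up 6.02% of the 20077 tested in each. Averaged over the 5 populations outside HP, a contrast chosen after these values were seen, the difference was -0.51 (SE 0.19, limma adjusted p = 0.613), where 0.102% of genes were called. With median scaling the sign turned in HE2 cells, to 0.24, and without HP DOX replicate 2 it turned in HP cells, to 0.19.

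Between untreated populations Bcl2l11 moved more. From FLK1+ 5h to d1 BC it was lower by 1.47 in the mean with no overlap (SE 0.43, limma adjusted p = 0.108), and from d1 BC to HE1 the mean went from -2.30 to -1.20 (SE of the difference 0.43, limma adjusted p = 0.182), a step that shrank to 0.37 with median scaling. From HE1 to HP cells the difference was -1.17 (SE 0.43, limma adjusted p = 0.164), and -1.01 and -1.33 within slides 1 and 3. With the slide as a fixed block that last step was called, at a limma adjusted p of 0.0447 in a fit that called 11.4% of genes, whereas with median scaling it shrank to -0.56. Without the slide, called genes made up 1.70% of those tested from FLK1+ 5h to d1 BC, 3.57% from d1 BC to HE1 and 4.59% from HE1 to HP.

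Bid, whose protein is cut by caspase-8 to carry death-receptor signals to mitochondria, was highest in HP cells. It was 2.67 and 2.25 there and 1.70 and 1.33 in untreated HE1 cells, higher by 0.94 (SE 0.42, limma adjusted p = 0.298). With DOX, HP cells read 2.35 and 2.71, within the untreated range or just above it. The HE2 arrays spread from 2.46 to 1.43 untreated and overlapped both neighbours.

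Over the 7 steps between untreated populations, limma called 0 of 49 tests of these 7 members, while 7 had an unadjusted p under 0.05: 3 from HE1 to HP and 1 each from FLK1+ to FLK1+ 5h, FLK1+ 5h to d1 BC, d1 BC to HE1 and HE1 to HE2. In the same order 14.4%, 15.9%, 11.3%, 17.9% and 9.96% of all genes did. The remaining steps called 3.27% of genes from FLK1+ to FLK1+ 5h, 0.268% from d1 BC to SM and 0.00395% from HE2 to HP. In HP cells with DOX 6 of the 7 members read lower, with a median of -0.36 where the median of all genes tested was 0.25 and 32.0% of them read lower. Arrays of 3 of the 7 did not overlap (Bcl2, Mcl1 and Bak1), as was so for 12.5% of all genes tested. Bak1 was separated only narrowly, with its highest DOX array at 3.979 and its lowest untreated array at 3.984.

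**Figure D5:**
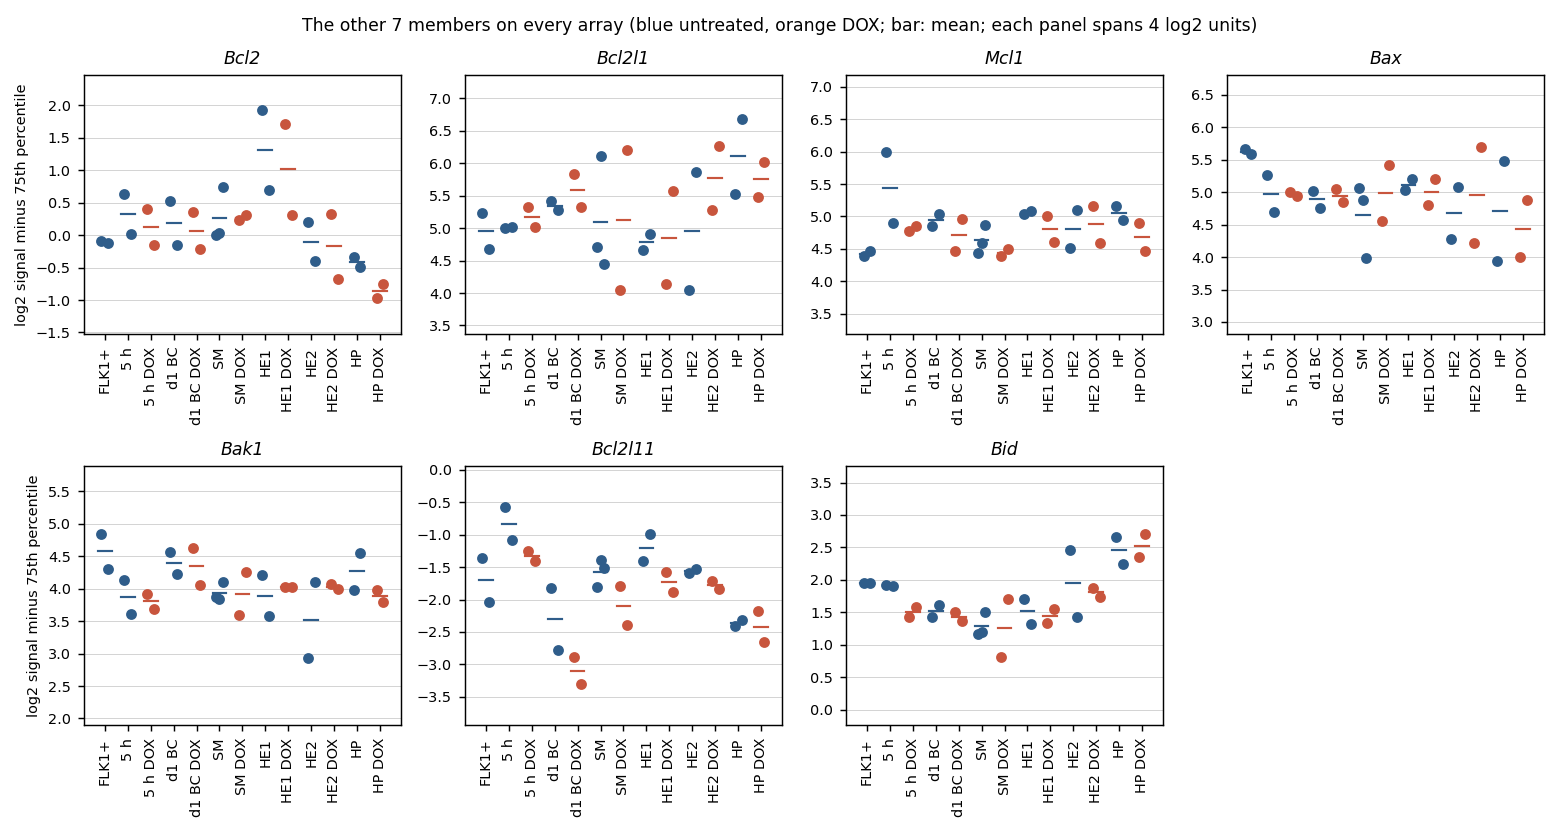
Signal of the other 7 members on each of the 27 arrays, in log2 units relative to the array's 75th percentile, at the main probe. Each point is 1 array, bars are group means, blue is untreated, orange is DOX, and each panel spans 4 units. Bcl2 is highest in HE1 cells, Bid in HP cells at 2.67 and 2.25, and and replicates lie far apart in places, as for Bcl2l1 in untreated HE2 cells at 4.05 and 5.86.

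Other genes of the apoptosis pathway were taken as 7 lists: further BCL2 relatives, the apoptosome and caspases, inhibitors of apoptosis, death receptors, the p53 pathway, NF-kB and mitochondrial partners of the family. Of 82 or 83 of these genes tested in each of the 5 populations outside HP, limma called 0 with DOX, and the lists' counts are of genes that passed the filter on dim probes. Their median difference was -0.25 for FLK1+ 5h, 0.02 for d1 BC, 0.09 for SM, 0.15 for HE1 and 0.43 for HE2 cells, against -0.04, 0.13, 0.09, 0.09 and 0.17 over all genes tested. In HE2 cells 59 of 83 read higher with DOX, where the median of all genes tested was also positive, at 0.17. The count is thus not read as a trait of these lists. The dim untreated HE2 array is one of the 2 untreated arrays behind it.

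Steps between untreated populations called a few pathway genes, and the share over all genes is given beside each count. From d1 BC to HE1, where 3.57% of all genes were called, 3 of 82 were called higher and 1 lower. Bmf, a BH3-only gene, rose by 3.07 (limma adjusted p = 0.00603), and Naip2, of the inhibitor-of-apoptosis family, rose by 4.39 (limma adjusted p = 0.000584). Bok, an effector relative of Bax, fell by 2.72 (limma adjusted p = 0.0447). From FLK1+ 5h to d1 BC, where 1.70% of all genes were called, 2 of 82 fell: Hrk, a BH3-only gene, by 4.73 (limma adjusted p = 0.00840) and Fasl, a death ligand, by 3.34 (limma adjusted p = 0.0213). Perp, a p53 target that encodes a membrane protein, was called higher from FLK1+ to FLK1+ 5h by 2.21, from HE1 to HE2 by 2.71 and from HE1 to HP by 4.12, with limma adjusted p of 0.0288, 0.00806 and 0.000139. In each of the first 2 of these steps it was the 1 gene called of 82, where 3.27% and 2.65% of all genes were called. Endog, a mitochondrial nuclease, was the other of 2 genes in 83 called from HE1 to HP, where 4.59% of all genes were called, and it was higher by 1.79 (limma adjusted p = 0.0125). The d1 BC and HE1 arrays shared no slide. With the slide as a fixed block Bmf, Naip2, Bok, Hrk, Endog and the steps of Perp from HE1 were still called, while Fasl and the first step of Perp were not (limma adjusted p = 0.123 and 0.117). The steps from d1 BC to SM and from HE2 to HP had 0 of 82 and 0 of 84 called by limma, where 0.268% and 0.00395% of all genes were called.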

How the data were processed

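The 27 samples were each labelled with a single dye and read on an Agilent mouse array. The signal of each spot is an intensity that the authors deposited as Feature Extraction gave it, background-subtracted and detrended but not scaled between arrays. The authors' own between-array normalized log2 values, deposited as a separate table, served as an alternative. Feature Extraction was version 10.7.3.1 in the file headers and 10.7.1.1 in the submitters' processing notes.

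Spots of a probe were averaged without outlier spots, the log2 75th percentile of the array over 55681 probes was subtracted, and the probe with the highest mean stood for a gene. Symbols came from RefSeq accessions (20145 genes with a symbol). Testing a gene required that one of the compared groups, or both, had its probe well above background throughout. Group means of 28318 genes were fitted with limma 3.58.1 in R 4.3.3 (14 residual and 4.33 prior degrees of freedom). Calls needed a Benjamini-Hochberg adjusted p under 0.05 and a 2-fold change. The fit was tested on simulated data. Tables and figures used the data.table package (version 1.17.8), pandas 2.3.3 and matplotlib 3.10.9 in Python 3.11.15. The number of arrays limits the precision. Arrays lay on 5 slides, and all HE1, HE2 and HP replicates 1 were on slide 1 and replicates 2 on slide 3. No array was a copy of another (0 identical pairs).

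The members and gene lists were chosen with earlier results of these data known. All members, pathway genes called in a tested comparison (up to 5 per comparison), the 5 genes most like a member, and Spi1, Irf8, Csf1r and Cebpa are named, apart from a result that is not reported here. The named genes Itgam, Tek, Itga2b and those of the closing observations were added after their values were seen. Further marker lists (erythroid, megakaryocyte, endothelial, smooth muscle, mast cell, feeder) were computed and are given with the closing observations.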

Additional observations from a re-analysis of the deposited data

How the results depend on the processing

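The number of members called with DOX in 5 populations, and of pathway genes called with DOX there, was 0 under all alternatives, those without 1 array included. For steps between untreated populations the count of 0 rose to 1 in the authors' processed values, 1 with the replicate block (Bcl2 from HE1 to HP, limma adjusted p = 0.0299), 3 with the slide as a fixed block, 4 with the slide as a random block, 2 with array quality weights, and 6 at an unadjusted p under 0.05 with a 2-fold change. It ranged from 0 to 1 when each array was left out in turn. Those calls were Bcl2 from HE1 to HP (0.00368 to 0.0443, limma adjusted p) and from HE1 to HE2, Bcl2l11 from FLK1+ 5h to d1 BC and from HE1 to HP, and, without untreated HE2 replicate 1, Bcl2a1d from HE1 to HE2, which then entered the test only through the single remaining HE2 array, where it was high. The cause was not tested. Members at least 2-fold changed with DOX in HP cells were 2, and 1 with normexp background correction, which lifts the dim Bcl2a1c signal. The mean of both probes added Bcl2l1. Without 1 HP array Bcl2a1d ranged from -4.28 to -3.08 and Bcl2a1c from -4.86 to -4.11.

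Same-numbered untreated and DOX arrays deviated together in 5 populations (correlations 0.26 to 0.60) but not in FLK1+ 5h (-0.15), the one population whose same-numbered arrays did not all share a slide. Replicate numbers were not taken as pairs in the values reported, so their p-values leave out this shared deviation. The slide was tried as a block of its own, with the calls given above. Median scaling moved the median of all genes tested most, from -0.04 to -0.68 in FLK1+ 5h and from 0.17 to 0.63 in HE2 cells with DOX, and members lower with DOX in HE2 cells went from 3 to 0 of 7. The averaged Bcl2l11 difference, added after seeing the data, stayed between -0.61 and -0.34 over 32 alternatives, with limma adjusted p from 0.199 to 1.00. Values near the array floor, as of Bcl2a1c outside untreated HP cells, have no order.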

Other observations

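In HP cells, the values of the pathway lists with DOX are descriptions, since the family was chosen on that comparison. Of 12 NF-kB genes tested, 10 read lower and 2 higher, with a median of -0.61 against 0.25 over all genes. Among all genes tested in HP cells 32.0% read lower. NF-kB is a known activator of A1, and its part in the Bcl2a1 values was not tested. The genes named next were picked after their values were seen, and all of them read lower. The 2 higher NF-kB genes are not among them. Nfkb2, an NF-kB subunit, differed by -1.40, Tnfaip3, a feedback inhibitor of the pathway, by -1.24, and Nfkbiz by -1.70. The BH3-only genes Pmaip1 and Bmf differed by -2.70 and -1.41, while the median of 15 further BCL2 relatives was 0.03, with 6 lower. Birc3, an inhibitor of apoptosis, differed by -1.31, while 5 of the 8 genes of its list read higher. The other medians were 0.02 for the apoptosome and caspases (6 of 13 lower), 0.18 for inhibitors of apoptosis (3 of 8), -0.31 for death receptors (7 of 12), 0.17 for the p53 pathway (3 of 14) and 0.16 for mitochondrial partners (3 of 11).

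Markers of other cell types in the same comparison had medians of 0.80 for erythroid genes (0 of 7 lower), 0.32 for megakaryocyte genes (1 of 5), 0.05 for endothelial genes (3 of 7), -0.07 for smooth muscle genes (3 of 5) and -0.26 for feeder genes (3 of 5), and the single mast cell gene tested differed by 1.40.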
